A study of Mus musculus with 12 samples.

Results

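Non-classical monocytes are represented here by 6 genes, Ace, Cx3cr1, Treml4, Adgre4, Cd300e and Spn, of the 38887 gene identifiers in the count table. They were chosen by a list of genes of these cells and on their counts at the 4 ages of the series, which were already known. Their levels and fold changes are therefore given as a description, with standard errors (SE) but no test. The data are polyA RNA sequencing of mouse spleen cells labelled Ly6G+, a surface mark of neutrophils, which the labels call PMN-MDSC (polymorphonuclear myeloid-derived suppressor cells). Mice were 2 days, 7 days, 14 days or 6 weeks old, with 3 libraries per age and 12 in all, and the series is about a suppressive activity that neutrophils of newborns hold for a time. No group carried an engineered allele or a treatment in the labels, which are silent on strain, on sex and on how many mice made up a library. The labels do not tell whether replicates are separate animals, so p-values rest on a spread that may be technical.

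Monocytes of the mouse fall into classical cells, which are rich in Ly6C and Ccr2 and enter inflamed tissue, and non-classical cells, which patrol the wall of blood vessels and clear debris from it. Classical cells can convert into non-classical ones, and the orphan nuclear receptor Nr4a1 is needed for the non-classical cells to form or survive. The spleen holds many of both kinds. Of the 6 genes, Ace encodes angiotensin-converting enzyme, a surface peptidase that also marks endothelium. Cx3cr1 is the receptor of fractalkine, a chemokine held on endothelium, and is carried by NK cells and macrophages as well. Treml4 and Cd300e are immunoglobulin-like receptors that work through adaptor proteins, Adgre4 is an adhesion G protein-coupled receptor related to F4/80, and Spn (CD43) is a long sialic acid-bearing mucin of many leukocytes.

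The stretches just before the gene starts are shown for Ace, Treml4, Adgre4 and Spn, so that a reader can see how unlike these starts are. They are the 250 bases upstream of a RefSeq start in GRCm38.p6, the assembly of mm10, written 5′ to 3′ on the strand of the gene. Capitals mark matches, on either strand, to the letters of 4 motifs: AAAGGTCA (the response element of Nr4a1), GAGGAAG (PU.1), TTGCNNAA (C/EBP) and CACCC (Klf factors). The windows are chr11:105967698-105967947 (+ strand) for the upstream start of Ace, chr17:48264045-48264294 (+) for Treml4, chr17:55749734-55749983 (+) for Adgre4 and chr7:127137824-127138073 (- strand) for Spn.
Ace: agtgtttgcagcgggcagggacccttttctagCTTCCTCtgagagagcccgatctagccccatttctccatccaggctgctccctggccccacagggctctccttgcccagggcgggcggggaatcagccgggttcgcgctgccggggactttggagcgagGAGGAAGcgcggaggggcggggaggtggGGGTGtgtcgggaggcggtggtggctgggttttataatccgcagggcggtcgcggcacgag
Treml4: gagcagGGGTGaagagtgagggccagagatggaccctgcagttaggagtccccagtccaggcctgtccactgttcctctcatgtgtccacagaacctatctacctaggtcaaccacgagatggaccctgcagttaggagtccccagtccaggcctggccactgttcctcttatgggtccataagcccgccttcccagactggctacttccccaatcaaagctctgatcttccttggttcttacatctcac
Adgre4: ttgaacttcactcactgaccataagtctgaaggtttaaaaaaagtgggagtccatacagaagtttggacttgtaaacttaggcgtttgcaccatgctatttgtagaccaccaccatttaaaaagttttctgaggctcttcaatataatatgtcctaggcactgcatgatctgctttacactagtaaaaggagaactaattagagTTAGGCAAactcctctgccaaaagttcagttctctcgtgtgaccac
Spn: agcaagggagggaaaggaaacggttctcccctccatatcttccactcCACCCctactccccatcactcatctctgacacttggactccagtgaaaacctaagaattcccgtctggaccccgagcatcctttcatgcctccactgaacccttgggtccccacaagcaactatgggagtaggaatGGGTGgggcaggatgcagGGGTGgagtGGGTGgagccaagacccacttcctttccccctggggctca
The Ace window held 2 matches to the PU.1 letters and 1 to the Klf letters. Treml4 had 1 Klf match, Adgre4 1 C/EBP match and Spn 4 Klf matches. The letters of the Nr4a1 element were in none of the windows of the 6 genes. Over all 32851 promoter windows of this length, 1.34% held the Nr4a1 letters, 10.6% the PU.1 letters, 9.56% the C/EBP letters and 52.0% the Klf letters. The Klf letters are thus in about every other promoter, and a match describes the sequence only. Ace has a further RefSeq start inside the gene, with its window at chr11:105974939-105975188, and gene counts cannot tell transcripts of the separate starts apart.

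All 6 genes were in the table and all passed the expression filter that kept 15494 genes for testing. In GRCm38 coordinates Ace (ENSMUSG00000020681) spans chr11:105967945-105989964, Cx3cr1 (ENSMUSG00000052336) chr9:119901616-120069879 and Treml4 (ENSMUSG00000051682) chr17:48264295-48275360. Adgre4 (ENSMUSG00000032915) lies at chr17:55749984-55853662, Cd300e (ENSMUSG00000048498) at chr11:115051917-115062177 and Spn (ENSMUSG00000051457) at chr7:127132232-127137823, all being protein-coding in GENCODE M21. Whether strand was kept is not stated, so antisense reads cannot be told apart. This touches Ace, which shares 295 exon bases with the antisense gene Gm11651 (10 counts over all libraries), and Cx3cr1, which shares 78 with Gm33858.

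Library totals lay between 34495767 and 38795913 counts. The 10 neutrophil markers summed to 65460 to 100300 CPM (counts scaled to 1e6 of normalized library size) in the 12 libraries. Ly6g itself had 74.9 to 112 CPM at 2 days and 94.45 to 115.5 at 7 days. It had 156 to 189.5 CPM at 14 days and 168 to 185 at 6 weeks. Of the 10 markers 4 were called lower and 1 higher at 2 days than at 6 weeks (19.7% and 20.7% of all genes). At 7 days 5 were lower and 0 higher (26.6% and 24.5% of all genes). From 7 to 14 days 2 rose and 0 fell (24% and 21.9% of all genes). At 2 days replicate 2 stood apart from its partners (Spearman 0.971 and 0.980 over genes, against 0.992 between the other two), and at 14 days replicate 1 did (0.986 and 0.986, against 0.994). Y-linked genes had 1816 to 4010 counts in every library of 2 and 7 days and 0 or 1 in those of 14 days and 6 weeks, so the sex of the mice and age cannot be told apart in comparisons across that line. The 7-day libraries were high in the heat-shock gene Hspa1a, at 10670 to 13370 CPM against 9.31 to 109 CPM at the other ages. Its part in the values below was not tested.

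Ace, the peptidase, had the widest swing of the 6 genes. At 2 days its levels were 19.3, 10.9 and 10.2 CPM in replicates 1, 2 and 3 (mean 13.47 ± 5.09 SD, n = 3). They were 40.3, 37.6 and 27.6 CPM at 7 days (35.2 ± 6.70) and 315, 292 and 257 CPM at 14 days (288 ± 29.3). At 6 weeks they were 155, 182 and 160.4 CPM (166 ± 14.7). The order was 2 days, 7 days, 6 weeks and 14 days, and no library of an age overlapped with those of the next. From 7 to 14 days the fitted difference was 8.19-fold (log2 3.03, SE 0.23), and from 2 to 14 days it was 21.3-fold (log2 4.42, SE 0.25). Against 6 weeks Ace was 12.3-fold lower at 2 days (log2 -3.62, SE 0.24), 4.71-fold lower at 7 days (log2 -2.24, SE 0.23) and 1.74-fold higher at 14 days (log2 0.80, SE 0.22). The value at 2 days leaned on replicate 1: without it the log2 difference from 6 weeks was -4.001.

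Cx3cr1, the fractalkine receptor, shared the high level at 14 days but did not differ between 2 and 7 days beyond the spread. Its levels were 9.71, 9.52 and 8.03 CPM at 2 days (9.08 ± 0.92) and 9.39, 10.3 and 6.01 CPM at 7 days (8.57 ± 2.27). They were 43.8, 47.9 and 43.9 CPM at 14 days (45.2 ± 2.34) and 36.1, 35.0 and 35.7 CPM at 6 weeks (35.6 ± 0.56). The libraries of 2 and 7 days overlapped, while those of 14 days lay above all of 6 weeks. The difference between 14 and 7 days was 5.27-fold (log2 2.40, SE 0.17), and that between 14 days and 6 weeks was 1.27-fold (log2 0.34, SE 0.16). At 2 and 7 days Cx3cr1 was 3.92-fold and 4.15-fold lower than at 6 weeks (log2 -1.97 and -2.05, SE 0.17 for both).

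**Figure D1:**
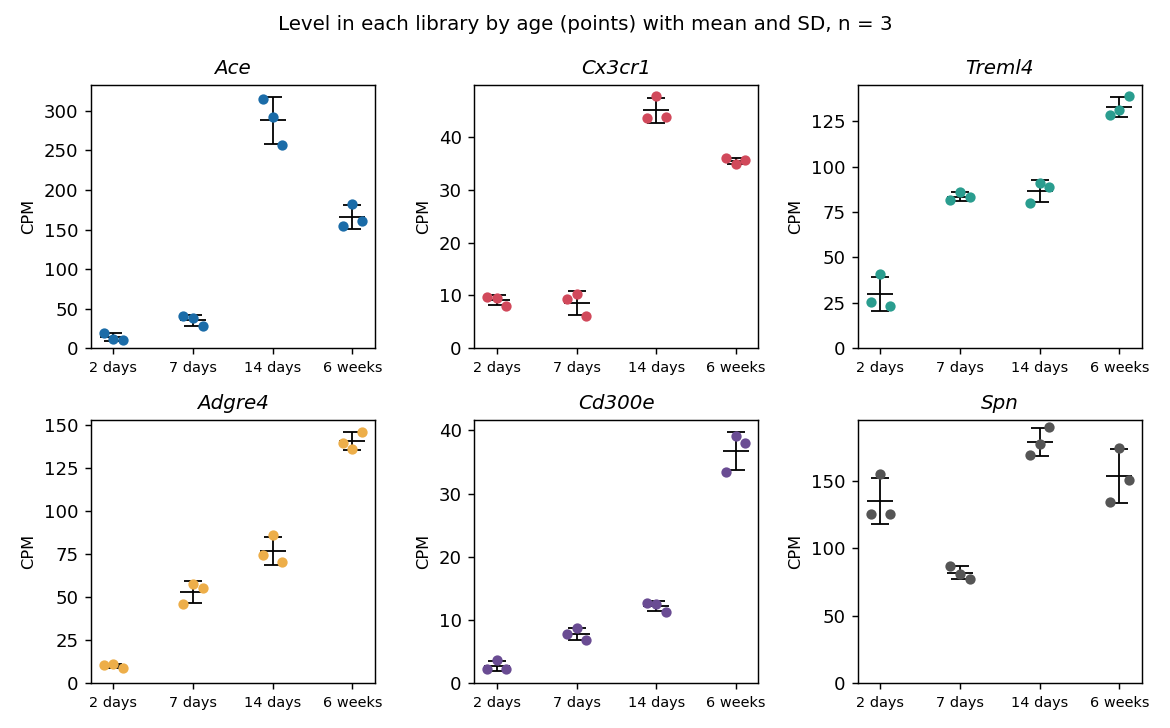
Levels of the 6 genes in each library, in CPM on linear axes, by age. Points are libraries, and horizontal lines with bars are the mean and SD of 3 libraries. Ace (257 to 315 CPM) and Cx3cr1 (43.8 to 47.9 CPM) are highest at 14 days, Treml4, Adgre4 and Cd300e at 6 weeks, and Spn is lowest at 7 days.

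Treml4, the receptor of the TREM family, had its widest step before 7 days. Its levels were 25.4, 40.7 and 23.4 CPM at 2 days (29.8 ± 9.46) and 81.6, 86.1 and 83.1 CPM at 7 days (83.6 ± 2.28). At 14 days they were 79.8, 91.3 and 88.9 CPM (86.7 ± 6.07), and at 6 weeks 129, 131 and 139 CPM (133 ± 5.43). The libraries of 7 and 14 days overlapped, and every other pair of neighbouring ages was separate. Between 2 and 7 days Treml4 differed 2.81-fold (log2 1.49, SE 0.17), between 7 and 14 days by log2 0.05 (SE 0.17), and 14 days was 1.54-fold below 6 weeks (log2 -0.62, SE 0.17). The high library at 2 days is replicate 2, the one that stood apart, and without it the log2 difference of 2 days from 6 weeks went from -2.16 to -2.44.

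Adgre4 was higher at each older age. It was at 10.6, 10.7 and 8.57 CPM at 2 days (9.94 ± 1.19), 45.9, 57.8 and 55.2 CPM at 7 days (52.9 ± 6.24), 74.3, 85.8 and 70.5 CPM at 14 days (76.9 ± 7.999) and 140, 136 and 146 CPM at 6 weeks (141 ± 5.06). No library overlapped between any 2 ages. The largest step was from 2 to 7 days, 5.33-fold (log2 2.41, SE 0.13), and the whole span from 2 days to 6 weeks was 14.2-fold (log2 -3.82 for 2 days against 6 weeks, SE 0.14). Scaling by library totals alone changed the 7-day difference from 6 weeks from log2 -1.41 to -1.24.

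Cd300e, an activating receptor of monocytes, had the fewest counts of the 6 and the same order of ages as Adgre4. Its levels were 2.17, 3.56 and 2.22 CPM at 2 days (2.65 ± 0.79), from 81 to 108 counts per library. They were 7.67, 8.73 and 6.81 CPM at 7 days (7.74 ± 0.96), 12.7, 12.4 and 11.3 CPM at 14 days (12.2 ± 0.75) and 33.4, 39.1 and 37.9 CPM at 6 weeks (36.8 ± 3.02). Here too no libraries of different ages overlapped. Cd300e at 14 days was still 3.03-fold below 6 weeks (log2 -1.60, SE 0.17), the farthest of the 6 genes from its 6-week level at that age. At 2 days it was 14.0-fold below (log2 -3.80, SE 0.19), and log2 -4.06 without replicate 2 of that age.

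Spn, the sialomucin CD43, moved in another way. Its levels were 125, 155 and 126 CPM at 2 days (135 ± 17.2), 87.0, 81.0 and 77.7 CPM at 7 days (81.9 ± 4.77), 169.9, 177 and 190.2 CPM at 14 days (179 ± 10.3) and 135, 175 and 151 CPM at 6 weeks (154 ± 20.1). The 7-day libraries were below all others, those of 2 days and 6 weeks overlapped, and those of 6 weeks and 14 days overlapped. Spn was 1.88-fold lower at 7 days than at 6 weeks (log2 -0.91, SE 0.13), or log2 -0.73 with library totals alone, and 2.19-fold higher at 14 than at 7 days (log2 1.13, SE 0.13). Its lowest and highest ages differed 2.19-fold, against 4.46-fold for Treml4, 5.27-fold for Cx3cr1, 13.9-fold for Cd300e, 14.2-fold for Adgre4 and 21.4-fold for Ace in ratios of mean CPM.

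**Figure D2:**
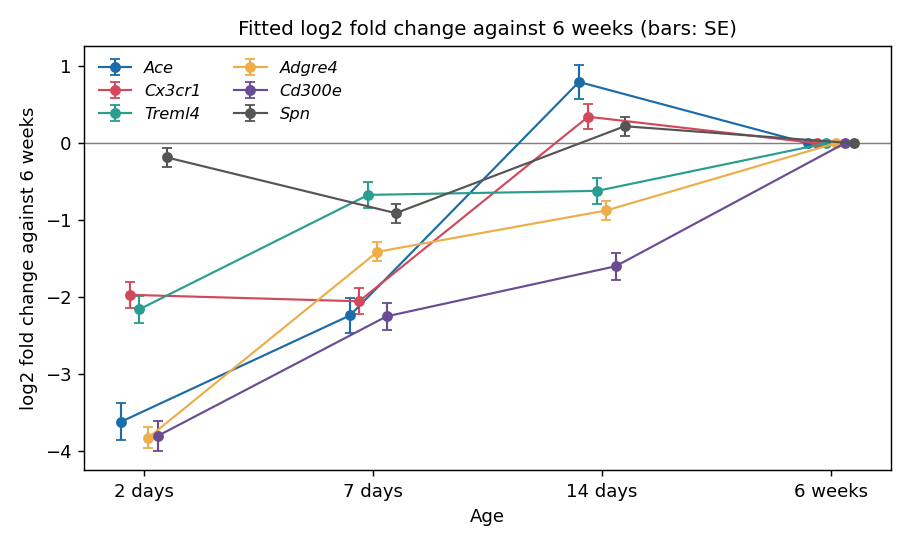
Fitted log2 fold change of each gene against 6 weeks, by age, with bars of 1 SE and points shifted sideways for clarity. Ace, Adgre4 and Cd300e start at -3.62 to -3.82 at 2 days, and at 14 days Ace (0.80), Cx3cr1 (0.34) and Spn (0.22) lie above the line of no difference while Cd300e is at -1.60.

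In libraries of 2 days, 5 of the 6 genes lay below every library of 6 weeks and Spn overlapped. Of all genes tested, 23.3% lay below in that comparison. At 7 days all 6 lay below every 6-week library, where 35.6% of all genes did. At 14 days Treml4, Adgre4 and Cd300e lay below, where 21.9% of all genes did, Ace and Cx3cr1 lay above, where 22.2% did, and Spn overlapped. Between 14 and 7 days 5 genes lay above without overlap, against 32.2% of all genes, and Treml4 overlapped. Between 7 and 2 days Ace, Treml4, Adgre4 and Cd300e lay above (27.4% of all genes), Spn lay below (27.7%) and Cx3cr1 overlapped. All 6 lay above at 14 days compared with 2 days, where 16.9% of all genes did. These genes were chosen with the pattern known, and the 3 comparisons with 6 weeks share its libraries. In bulk RNA, fewer cells of a type and less RNA per cell cannot be told apart.

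Levels can be compared between genes only per length of exon, here as CPM per kilobase (kb). At 2 days Spn stood first with 28.9 CPM per kb and Treml4 next with 14.9, and the other 4 genes were between 1.27 (Cd300e) and 2.85 (Adgre4). At 14 days Ace led with 54.5 CPM per kb, followed by Treml4 with 43.4, Spn with 38.3, Adgre4 with 22.02, Cx3cr1 with 10.03 and Cd300e with 5.82. At 6 weeks Treml4 led with 66.6, ahead of Adgre4 with 40.3, Spn with 32.8, Ace with 31.4, Cd300e with 17.6 and Cx3cr1 with 7.90. Ace thus went from the fourth place at 2 days to the first at 14 days, and Treml4 was among the leading pair at all ages.

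The 6 genes fell into unlike courses over the 12 libraries, which share the ages and the sort. Pearson r of log2 CPM was 0.94 between Ace and Cx3cr1, 0.98 between Treml4 and Adgre4, 0.95 between Adgre4 and Cd300e and 0.94 between Treml4 and Cd300e. Spn had r of 0.12 with Treml4 and 0.19 with Adgre4, and 0.78 with Cx3cr1. These r values describe 4 ages with 3 libraries each and carry no test.

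Per 100 CPM of Csf1r, the growth factor receptor of monocytes and macrophages, Ace was at 7.31 ± 4.56 at 2 days, 9.91 ± 1.36 at 7 days, 61.6 ± 6.30 at 14 days and 14.1 ± 1.61 at 6 weeks. Ace at 14 days thus stood apart from all other ages on this scale too. Cx3cr1 was at 4.69 ± 1.70, 2.40 ± 0.47, 9.68 ± 0.84 and 3.03 ± 0.17 in the same order of ages, also highest at 14 days. Treml4 (14.3, 23.8, 18.6 and 11.3) and Adgre4 (5.10, 15.1, 16.5 and 11.98) varied less on this scale than in CPM. Cd300e went from 1.28 to 3.13 over the 4 ages, and Spn went from 68.4 ± 19.3 at 2 days to 13.1 ± 1.89 at 6 weeks. Csf1r itself had 217 ± 103 CPM at 2 days, 353 ± 29.4 at 7 days, 468 ± 15.9 at 14 days and 1176 ± 66.5 at 6 weeks, and it is also transcribed by macrophages.

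The genes most like the mean course of the 6, by Pearson r of log2 CPM with their mean z score over the 12 libraries, were Lair1 (0.996), S1pr5 (0.987), Ptpro (0.985), Slc46a3 (0.984), Cyp4f37 (0.984), Smpdl3b (0.984), Tep1 (0.982), Nudt7 (0.982), Clec4a1 (0.982) and Rras (0.979). Lair1, an inhibitory collagen receptor, had 7.74 CPM at 2 days, 13.4 at 7 days, 38.1 at 14 days and 42.5 at 6 weeks. For single genes the closest were Cyp2ab1 for Ace (r 0.989), Tlr11 for Cx3cr1 (0.980), Hpgd for Treml4 (0.992), Slc12a2 for Adgre4 (0.991), Slc45a4 for Cd300e (0.990) and Tm9sf4 for Spn (0.974). Next came S1pr5 and Decr2 for Ace, Cyp4f16 and Syngr2 for Cx3cr1, Clec4b1 and Mut for Treml4, Lilra5 and Adrb1 for Adgre4, Nfkbie and Gas2l1 for Cd300e, and Strada and Eml3 for Spn, with r from 0.966 (Eml3) to 0.989 (Lilra5). Likeness over libraries that share 4 ages is a description only. Cyp2ab1 shared the order of ages of Ace, with 0.45, 1.62, 9.49 and 5.72 CPM at 2, 7 and 14 days and 6 weeks. Hpgd, which inactivates prostaglandins, shared the level stretch of Treml4 between 7 and 14 days, with 4.99, 43.8, 44.7 and 83.0 CPM.

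The 14 other genes of non-classical monocytes that were listed all passed the filter. They were tested by edgeR's quasi-likelihood test with Benjamini-Hochberg adjustment over all 15494 genes. This list, too, was chosen with earlier results of these data known, so its calls describe the list and are not independent support. Against 6 weeks 10 were lower and 1 higher at 2 days, where 19.7% of all genes were called lower and 20.7% higher. At 7 days 10 were lower and 1 higher, where the shares of all genes were 26.6% and 24.5%. At 14 days 2 were lower and 2 higher, against 9.26% and 9.68% of all genes, and from 7 to 14 days 11 rose and 1 fell, against 24% and 21.9%. Their median log2 difference was -1.17, -1.36, -0.13 and 0.95 in these comparisons, where that of all genes was 0.04, -0.01, 0.00 and 0.02. S1pr5, the sphingosine-1-phosphate receptor by which these monocytes leave the marrow, had 1.34 ± 0.39, 3.05 ± 0.44, 22.8 ± 1.08 and 23.6 ± 2.75 CPM at the 4 ages. It was 17.5-fold lower at 2 days (edgeR adjusted p = 4.316e-08) and 7.74-fold lower at 7 days (edgeR adjusted p = 4.656e-07) than at 6 weeks. From 7 to 14 days it rose 7.45-fold (edgeR adjusted p = 8.61e-07), and its 14-day libraries overlapped with those of 6 weeks.

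Itgax (CD11c), an integrin chain of dendritic cells as well, had its lowest level at 7 days, with 52.9 ± 29.7, 10.2 ± 0.27, 184 ± 5.18 and 167 ± 15.1 CPM at the 4 ages. At 7 days it was 16.4-fold below 6 weeks (edgeR adjusted p = 1.569e-06). Among the C-type lectins, Clec4a3 had 5.87 ± 2.83, 14.4 ± 1.41, 32.9 ± 2.96 and 41.6 ± 2.71 CPM and rose 2.28-fold from 7 to 14 days (edgeR adjusted p = 0.00158). Clec4a1 had 12.8 ± 4.46, 20.3 ± 1.53, 41.4 ± 5.57 and 57.0 ± 0.74 CPM and rose 2.04-fold in that interval (edgeR adjusted p = 0.0010). Cd36, the scavenger receptor, went the other way against 6 weeks, 2.497-fold higher at 7 days (edgeR adjusted p = 1.48e-05) and 3.37-fold higher at 14 days (edgeR adjusted p = 1.469e-05). The genes called lower at 14 days were Tcf7l2 (1.89-fold, edgeR adjusted p = 0.00246) and Fcgr4, the Fc receptor CD16.2 (1.78-fold, edgeR adjusted p = 0.0375). The call of Fcgr4 was lost without replicate 2 of 7 days or any single library of 14 days or 6 weeks (adjusted p 0.0516 to 0.114), while without replicate 2 of 2 days 5 of the 14 genes were called lower. The fall of Tcf7l2 from 7 to 14 days was lost without replicate 2 of 7 days or replicate 1 of 14 days.

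**Figure D3:**
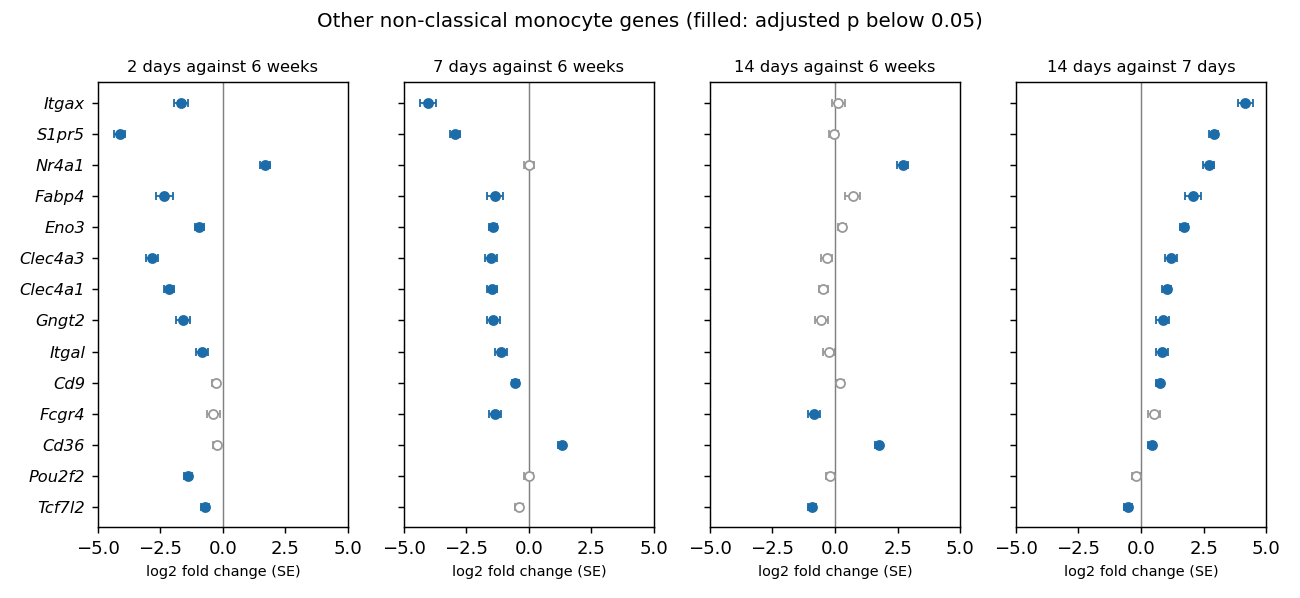
Fitted log2 fold changes with SE of the 14 other non-classical monocyte genes in 4 comparisons, filled where the edgeR adjusted p was below 0.05. Most lie left of 0 at 2 and 7 days against 6 weeks, with Nr4a1 to the right at 2 days and Cd36 at 7 days, and 11 rose from 7 to 14 days.

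Nr4a1, the regulator of these monocytes, was highest at 14 days, as were Ace, Cx3cr1 and Spn. Its levels at 7 days and 6 weeks were alike, while all of the 6 genes were lower at 7 days than at 6 weeks. Nr4a1 had 641 ± 116 CPM at 2 days, 201 ± 5.67 at 7 days, 1309 ± 458 at 14 days and 200 ± 13.8 at 6 weeks. It was 3.21-fold higher at 2 days (edgeR adjusted p = 7.185e-05) and 6.56-fold higher at 14 days (edgeR adjusted p = 1.729e-05) than at 6 weeks. Nr4a1 is also an immediate early gene, and some others of that kind were high at the same ages. Fosb had 1044 to 1851 CPM at 2 days and 1330 to 1555 at 14 days. It had 160 to 221 at 7 days and 89.0 to 109 at 6 weeks. Fos, Jun and Egr1 were also higher in every library of 2 and 14 days than at 7 days and 6 weeks. Fos at 6 weeks (1527 to 2253 CPM) was above 7 days (558 to 662). Nr4a2 had 2.76 ± 1.71, 2.93 ± 0.36, 8.32 ± 7.01 and 0.61 ± 0.27 CPM at the 4 ages. Nr4a3 had 1.06 ± 0.63, 3.51 ± 0.41, 8.59 ± 7.83 and 3.05 ± 0.97 CPM. Both means were highest at 14 days, where they leaned on replicate 1. That library had 16.4 CPM of Nr4a2 (against 5.03 and 3.56) and 17.6 of Nr4a3 (against 4.25 and 3.88). The part of these genes in the level of Nr4a1 was not tested. Of the 12 listed regulators of monocyte conversion, 5 were lower at 7 days than at 6 weeks and 1 was higher (26.6% and 24.5% of all genes), the latter a call lost without replicate 1 of 6 weeks. From 7 to 14 days 5 rose, where 24% of all genes did, and 9 rose without replicate 2 of 2 days. Cebpb, which non-classical monocytes need, was 3.18-fold lower at 7 days than at 6 weeks (edgeR adjusted p = 0.000102), and Klf2 was 3.89-fold lower (edgeR adjusted p = 0.000145).

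Genes around each member were read from lists of their pathways. For Ace, 8 of 16 genes of the renin-angiotensin and kinin system passed the filter, and Agt and Ren1, which encode the substrate and the first enzyme of the system, had at most 9 and 4 counts in a library. Anpep (CD13), a surface peptidase that acts on peptides of this system, had 27.2 ± 6.25, 3.40 ± 0.45, 18.6 ± 3.998 and 21.9 ± 5.29 CPM and rose 5.47-fold from 7 to 14 days (edgeR adjusted p = 1.212e-05). Unlike Ace, it was in overlapping ranges at 2 days and 6 weeks. For Cx3cr1, its ligand gene Cx3cl1 was at 0.26 CPM or less on average at every age, and 3 of the 8 genes of the ligand, its sheddases and receptor signalling were lower at 7 days than at 6 weeks, beside 26.6% of all genes. From 7 to 14 days 2 of these 8 rose, beside 24% of all genes, and 4 without replicate 2 of 2 days. Both counts of these 8 genes are near the share of all genes.

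All 7 other genes of the Cd300 family were lower at 7 days than at 6 weeks, where 26.6% of all genes were, and all 7 rose from 7 to 14 days, where 24% did. At 2 days 5 of the 7 were lower and 1 higher than at 6 weeks (19.7% and 20.7% of all genes), with a median log2 difference of -0.96, and 3 were lower without replicate 1 of 6 weeks. Cd300a, an inhibitory receptor, was 3.58-fold lower at 7 days (edgeR adjusted p = 0.000136), and the gene higher at 2 days was Cd300lf, by 1.78-fold (edgeR adjusted p = 0.0012). Of 7 listed genes, 5 of the TREM family and the adaptors Tyrobp and Hcst, 2 rose (Trem1 and Hcst) and 2 fell (Treml1 and Treml2) from 7 to 14 days, near the 24% and 21.9% of all genes. Trem1, an amplifier of inflammation on neutrophils and monocytes, had 1038 ± 64.9 CPM at 2 days against 314 ± 64.3 at 6 weeks, 3.31-fold higher (edgeR adjusted p = 5.069e-05). Of the relatives of Adgre4, Adgre1 (F4/80), a macrophage mark, was at 36.7 ± 8.08, 163 ± 4.43, 97.6 ± 13.3 and 227 ± 17.6 CPM. Adgre5 (CD97), found on most leukocytes, had 799 ± 227, 493 ± 44.0, 1163 ± 176 and 1426 ± 309.8 CPM and was 2.89-fold lower at 7 days than at 6 weeks (edgeR adjusted p = 0.000123). Of the 8 listed partners of Spn, 7 were lower and 1 higher at 7 days than at 6 weeks, beside 26.6% and 24.5% of all genes. From 7 to 14 days 5 rose and 2 fell, beside 24% and 21.9% of all genes. The cytoskeletal linker Msn, which binds the tail of CD43, was 1.98-fold lower at 7 days (edgeR adjusted p = 0.000566), beside the low point of Spn. Selplg (PSGL-1), the other large mucin of leukocytes, was 5.84-fold lower at that age (edgeR adjusted p = 3.476e-05).

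**Figure D4:**
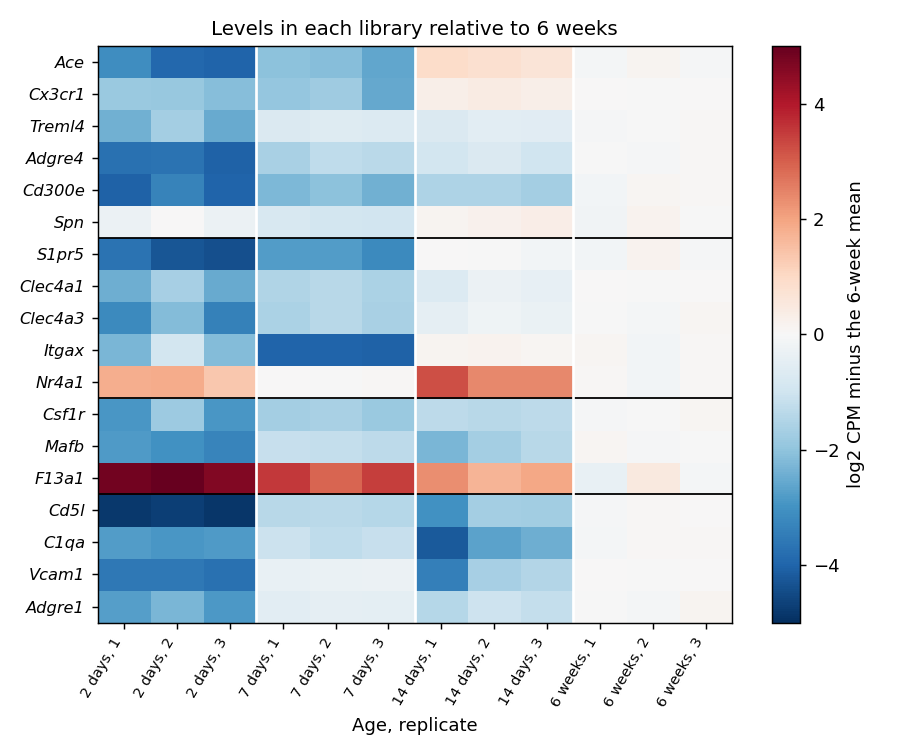
Level of each gene in each library as log2 CPM minus the mean of the 6-week libraries, with the 6 genes on top, then genes of non-classical monocytes, monocytes and macrophages. Columns are libraries by age and replicate; blue is below and red above 6 weeks. The CPM carry a prior count of 2. Ace and Cx3cr1 are reddest in the columns of 14 days, and replicate 1 of 14 days is the lowest of its age for Cd5l, C1qa and Vcam1.

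Markers of other cells that could carry these genes were set beside them. Of 8 genes shared by monocytes 7 were lower and 1 higher at 2 days than at 6 weeks, 5 were lower at 7 days, and 5 were lower and 1 higher at 14 days. The shares of all genes called lower were 19.7%, 26.6% and 9.26%, and those called higher 20.7% at 2 days and 9.68% at 14 days. Classical monocyte genes took unlike courses. F13a1 went from 58.2 ± 6.89 CPM at 2 days to 20.4 ± 4.35, 8.24 ± 1.78 and 2.08 ± 0.68 CPM, and was 28.0-fold above 6 weeks at 2 days (edgeR adjusted p = 9.517e-08). Ms4a4c went the other way, with 2.87 ± 0.76, 4.28 ± 0.56, 12.6 ± 3.40 and 13.4 ± 1.35 CPM at the 4 ages. Its means had the same order of ages as Adgre4, but unlike those of Adgre4 its libraries of 14 days and 6 weeks overlapped. Ly6c2 had overlapping libraries at 2 days and 6 weeks. Of the 6 listed classical genes 2 were higher (F13a1 and Vcan) and 1 lower (Ms4a4c) at 2 and at 7 days than at 6 weeks. These counts are near the shares of all genes (20.7% and 19.7% at 2 days, 24.5% and 26.6% at 7 days). At 14 days 3 of the 6 were higher and 0 lower, beside 9.68% and 9.26% of all genes. Only 1 was called higher without replicate 2 or replicate 3 of 14 days, or without replicate 2 or replicate 3 of 6 weeks. Of 15 macrophage genes 12 fell and 1 rose from 7 to 14 days, beside 21.9% and 24% of all genes, and the list summed to 846 to 1139 CPM at 2 days, 2578 to 2695 at 7 days, 896 to 1496 at 14 days and 4412 to 4719 at 6 weeks. Replicate 1 of 14 days was the lowest of its age for the macrophage genes C1qa (26.2 CPM against 76.9 and 91.1) and Cd5l (17.3 against 43.0 and 42.3). It was the highest for Slc40a1 of the same list (446 CPM against 376 and 388). Ace was at 315 CPM in that library against 292 and 257, and a link between these values was not tested.

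NK cell genes, which matter for Cx3cr1 and Spn, summed to 29.1 to 51.9 CPM at 14 days against 108 to 141 CPM at 6 weeks, and all 8 were called lower, where 9.26% of all genes were, while Cx3cr1 lay above its 6-week libraries. At 2 days they summed to 29.9 to 54.8 CPM and at 7 days to 21.1 to 27.4 CPM. Endothelial genes, which matter for Ace, summed to 31.0 to 60.1, 62.4 to 66.2, 30.1 to 45.4 and 70.4 to 74.0 CPM at the 4 ages, most of it Pecam1, which leukocytes also transcribe. The defining endothelial genes Tek, Kdr and Cdh5 were near 0 at 14 days and at 6 weeks alike. In a library of 14 days Tek had 0 to 2 counts, Kdr 11 to 27 and Cdh5 16 to 33. In a library of 6 weeks they had 0 to 4, 22 to 34 and 13 to 16 counts. From 7 to 14 days 5 of the 6 tested endothelial genes fell, where 21.9% of all genes did, Cdh5 by 6.05-fold (edgeR adjusted p = 0.000874). Of 7 dendritic cell genes 5 rose over that interval, where 24% of all genes did, with sums of 16.1 to 33.2, 33.6 to 41.8, 74.0 to 109 and 55.4 to 83.6 CPM at the 4 ages. Flt3 rose 5.46-fold from 7 to 14 days (edgeR adjusted p = 0.000227). T cell genes summed to 29.3 to 40.0, 56.6 to 74.4, 28.7 to 51.7 and 56.2 to 67.1 CPM at the 4 ages. B cell genes summed to 247 to 324, 503 to 569.6, 131 to 356 and 350 to 452 CPM in the same order. All 5 B cell genes fell from 7 to 14 days, where 21.9% of all genes did, and 3 fell without replicate 1 of 14 days. Eosinophil genes summed to 39.4 to 92.3, 134 to 189, 93.8 to 133 and 116 to 134 CPM. The part of other cells in the levels of the 6 genes was not tested.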

How the data were processed

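Whole-number counts per gene of 12 libraries were deposited by the authors in 1 table. The submitters' processing notes list RSEM 1.2.3, DESeq2 and mm10 with no role given, and the deposited counts may be rounded estimates, which would divide reads among similar genes. Trizol RNA and cDNA primed by random hexamers were used, per the labels' protocols. Of 38887 identifiers, 37570 took a symbol from GENCODE M21, and the others stayed in the totals of 34495767 to 38795913 counts. On average over genes, replicates differed by more than counting error (chi-square per degree of freedom 9.06 to 167). That average need not hold for each gene: Cx3cr1 at 6 weeks had 1294 to 1320 counts and an SD of 0.56 CPM at a mean of 35.6.

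Age labels set the groups. Normalization was by trimmed mean of M-values, with the filterByExpr filter (minimum count 10, 15494 genes kept). edgeR 4.0.16 (glmQLFit and glmQLFTest, R 4.3.3) fitted 1 model to all libraries with age as the only term, with Benjamini-Hochberg adjustment over all genes and a threshold of 0.05. SE is |log2 fold change| over the square root of F. Means are given ± SD of 3 libraries. The procedure was tested on simulated data. The members and gene lists were chosen with earlier results of these data known. Named genes were the 6, any gene of the lists, and those with the highest r (the 10 closest to the mean z score and the 3 closest to each gene, among genes with a mean of at least 1 CPM). Alternatives were library totals alone, DESeq2 1.42.0, limma-voom (limma 3.58.1), no expression filter, only the 2 ages compared, a replicate block, each library left out, and, chosen after seeing the data, replicate 2 of 2 days and replicate 1 of 14 days left out together. Promoter sequences are RefSeq's, of GRCm38.p6. Some results of the renin-angiotensin list are not reported here.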

Additional observations from a re-analysis of the deposited data

How the results depend on the processing

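Of 684 alternative values of the 36 fold changes of the 6 genes, 23 moved by at least the SD within ages and 0 of those above that SD changed sign. Among the counts of the 14 other non-classical monocyte genes, the number lower at 14 days than at 6 weeks was 2, and it was 5 with only these ages fitted and 5 without both libraries that stood apart. With single libraries left out it ran from 1 to 5. The number that fell from 7 to 14 days was 1, and ran from 0 to 1 with single libraries left out. The cause was not tested. All other counts of these genes stayed within 1.5 times the reported one. Same-numbered libraries showed little shared deviation (r -0.25 to 0.20, 2 of 18 pairs above 0.1). With 3 libraries per age this cannot exclude a pairing by number, on which the labels are silent. With a replicate block, 10, 11 and 2 of the genes were lower at 2, 7 and 14 days than at 6 weeks, 1, 1 and 2 were higher, and 11 rose and 1 fell from 7 to 14 days. Under library totals the typical gene's log2 value at 7 days against 6 weeks (median over all tested) was 0.16 in place of -0.01, and against 2 days 0.14 in place of -0.01. Depth limits Cd300e at 2 days, Agt and Tek.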
